A study of Mus musculus with 6 samples.

Results

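The chemokine transcripts examined were the 10 secreted chemokine genes Cxcl15, Ccl9, Cxcl10, Ccl2, Ccl7, Cxcl1, Cxcl2, Cxcl5, Cxcl12 and Ccl25, taken by name from a count table of 34718 genes. They were measured by RNA-seq in Hepa1-6, an established mouse hepatoma line grown in culture, although the labels also tag the tissue as tumour. The tested libraries were 3 from cells with a knockdown of Zfp207 by short hairpin RNA (shZfp207), and they were set against 3 from cells with a control hairpin (shNC). Zfp207 encodes a zinc finger protein (ZNF207 in human) known for binding microtubules and the spindle checkpoint protein BUB3. The series title names the infiltration of CD8+ T cells, and chemokines are among the signals that a tumour cell can send to leukocytes. The labels give no hairpin sequence, number of hairpins or clones, nor whether the replicates were separate cultures, and p-values therefore reflect spread among these 6 libraries only.

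Chemokines are small secreted proteins that bind G protein-coupled receptors on leukocytes and direct their migration. Mouse Cxcl1, Cxcl2, Cxcl5 and Cxcl15 carry a glutamate-leucine-arginine motif before their CXC cysteines and attract neutrophils, the first 3 of them through CXCR2. Cxcl10 attracts activated T cells and natural killer cells through CXCR3, and Cxcl12 binds CXCR4. Ccl2 and Ccl7 recruit monocytes through CCR2, Ccl9 acts through CCR1, and Ccl25 is the ligand of CCR9. Many of these genes are induced through NF-kappaB or interferon pathways, and the mRNAs of several carry AU-rich elements that shorten their life.

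Promoter windows were available for 7 of the 10 genes, and 4 are printed because their genes carry the contrasts described further on: Cxcl15 and Ccl9, which rose in shZfp207 libraries, Cxcl1, which was the chemokine farthest out in 1 control library, and Cxcl10, the T cell attractant, which did not pass the test. Each is the 250 bases before the RefSeq transcription start in build GRCm38.p6, written 5′ to 3′ on the gene's strand. Capitals mark every match, on either strand, to a motif searched: GGGNNNNNCC (NF-kappaB type), GAAANNGAAA (interferon-stimulated response element type), TGANTCA (AP-1 type) and TATAAA. The windows lie at chr5:90794284-90794533 (plus strand) for Cxcl15, chr11:83578637-83578886 (minus strand) for Ccl9, chr5:90890995-90891244 (plus strand) for Cxcl1 and chr5:92348890-92349139 (minus strand) for Cxcl10.
Cxcl15: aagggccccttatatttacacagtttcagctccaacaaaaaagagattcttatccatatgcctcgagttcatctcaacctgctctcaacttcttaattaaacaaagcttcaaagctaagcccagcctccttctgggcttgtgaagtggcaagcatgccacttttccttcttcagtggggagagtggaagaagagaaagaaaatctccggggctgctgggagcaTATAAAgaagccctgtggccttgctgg
Ccl9: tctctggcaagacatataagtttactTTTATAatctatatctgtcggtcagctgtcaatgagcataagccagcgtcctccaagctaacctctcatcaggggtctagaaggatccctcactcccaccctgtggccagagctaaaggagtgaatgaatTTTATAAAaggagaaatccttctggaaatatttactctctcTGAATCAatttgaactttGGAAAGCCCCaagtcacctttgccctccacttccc
Cxcl1: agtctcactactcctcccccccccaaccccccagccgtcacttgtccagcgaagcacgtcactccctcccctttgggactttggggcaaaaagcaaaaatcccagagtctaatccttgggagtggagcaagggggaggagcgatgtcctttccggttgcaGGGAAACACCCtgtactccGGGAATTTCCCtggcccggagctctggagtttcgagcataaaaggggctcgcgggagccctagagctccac
Cxcl10: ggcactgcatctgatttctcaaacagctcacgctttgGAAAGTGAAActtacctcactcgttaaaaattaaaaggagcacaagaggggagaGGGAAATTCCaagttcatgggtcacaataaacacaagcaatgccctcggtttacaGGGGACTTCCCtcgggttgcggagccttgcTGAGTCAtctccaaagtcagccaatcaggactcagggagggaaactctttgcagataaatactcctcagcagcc

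The Cxcl15 window held 1 match, a TATAAA at positions -27 to -22 from the start. The Ccl9 window held 1 GGGNNNNNCC on the minus strand at -35 to -26, a TGANTCA at -53 to -47, which reads on both strands, and 3 TATAAA, of which the one at -94 to -89 and the one at -92 to -87 overlap. The Cxcl1 window held 4 GGGNNNNNCC matches in 2 overlapping pairs, and 1 of them, at -71 to -62, read GGGAATTTCC. The Cxcl10 window held 4 GGGNNNNNCC matches, of which 3 overlap at -104 to -94, a GAAANNGAAA at -213 to -204 and a TGANTCA at -74 to -68. The Cxcl2 window also held GGGAATTTCC, at -97 to -88. Positions count from the RefSeq start. By the gene coordinates given further on, Cxcl1 starts at 90891241 and Cxcl2 at 90903871, before their windows end (90891244 and 90903898). Motif positions in these 2 windows would thus shift with the start used. GGGNNNNNCC is frequent, in 45.8% of the 32851 windows of the same length, and TATAAA was in 12.4%, TGANTCA in 6.75% and GAAANNGAAA in 2.98%. GGGAATTTCC, which was singled out after the sequences had been seen, was in 28 windows (0.0852%). The Cxcl12 window held 1 GGGNNNNNCC. The Ccl25 windows, at 2 start sites, held 1 TATAAA between them, and no windows were held for Cxcl5, Ccl2 and Ccl7. A match describes the letters of a window and is not evidence of a bound site.

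Libraries held 14629661 to 15236957 gene counts in shZfp207 and 11933736 to 16248346 in shNC. Zfp207 itself had 732, 725 and 685 counts in shZfp207 replicates 1, 2 and 3, against 1688, 2889 and 3522 in shNC replicates 1, 2 and 3 (log2 fold change -1.95, SE 0.170, edgeR adjusted p = 0.00236). Control replicate 1 stood apart from the other libraries. Its mitochondrially encoded transcripts took 10.5% of counts, against 2.89% and 2.67% in the other controls and 5.60% to 6.00% in shZfp207, and its log2 profile correlated at 0.95 with each of the other controls, which correlated at 0.989 with each other. Results that rest on it are therefore given with and without it, and whether its composition bears on them was not tested. Of the hepatocyte and hepatoma markers, Alb, Afp, Apob, Hnf4a, Krt8 and Krt18 were expressed. Alb averaged 2342 CPM in shZfp207 and 959.4 CPM in shNC, Afp 1889 CPM in shZfp207 and 867.5 CPM in shNC, and Apob 290.2 CPM in shZfp207 and 131.8 CPM in shNC. These 3 shNC means were lowered by replicate 1. In shNC replicates 1, 2 and 3, Alb had 6252, 17598 and 18741 counts, Afp 8851, 13671 and 15140, and Apob 470, 2585 and 2911. In shZfp207, Alb had 34231 to 35865 counts, Afp 27043 to 29552 and Apob 4212 to 4450. Krt18 averaged 1828 CPM in shZfp207 and 2842 CPM in shNC, and Krt8 785.2 CPM in shZfp207 and 1248 CPM in shNC, whereas Hnf4a averaged 367.1 CPM in shZfp207 and 363.2 CPM in shNC. In contrast, Apoa1 had 22 to 53 counts, Ttr 0 to 5 counts and Serpina1a 0 to 3 counts per library. T cell markers were at 0 apart from 1 Cd4 count in shNC replicate 3. Endothelial markers summed to 1.47 to 2.07 counts per 1000000 gene counts (CPM) in shZfp207 and 0.619 to 1.74 CPM in shNC. Fibroblast and stellate markers summed to 2681 to 2793 CPM in shZfp207 and 1998 to 2277 CPM in shNC, nearly all from Dcn. Of the others, Des had 14 to 25 counts per library, Col1a1 0 to 11, and Col1a2, Pdgfrb and Lum 0 to 3. Whether these differences bear on the chemokine results was not tested.

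Of the 10 chemokine genes, 8 passed the filter on low counts, and Ccl7 and Cxcl12 did not. With edgeR's quasi-likelihood test and Benjamini-Hochberg adjustment over 11975 tested genes, 2 of the 8 rose (adjusted p under 0.05), against 9.92% of all tested genes, and 0 fell, against 10.7%. The 2 that rose were Cxcl15 and Ccl9. Ccl9, with 2, 4 and 0 counts in shNC, passed the filter only through its shZfp207 libraries, so it could hardly be called other than higher. At an unadjusted p under 0.05, 2 were lower (Cxcl5 and Ccl25), and the share of all genes at that threshold is not given here. DESeq2 called 1 of the 8 lower, Cxcl5, where it called 1651 of all 11975 tested genes lower. The median log2 fold change of the 8 was -0.17, with 3 positive, beside a median of -0.03 over all tested genes. Once shNC replicate 1 was left out, 4 of the 8 were higher, against 26.1% of 12108 tested genes, and 1 was lower, against 26.1%, and the median was 0.75, beside 0.01 over all genes. In that fit 52.1% of all genes were called in either direction, so calls were common there. Whether the split of 4 higher and 1 lower among the 8 differs from that of all genes was not tested.

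**Figure D1:**
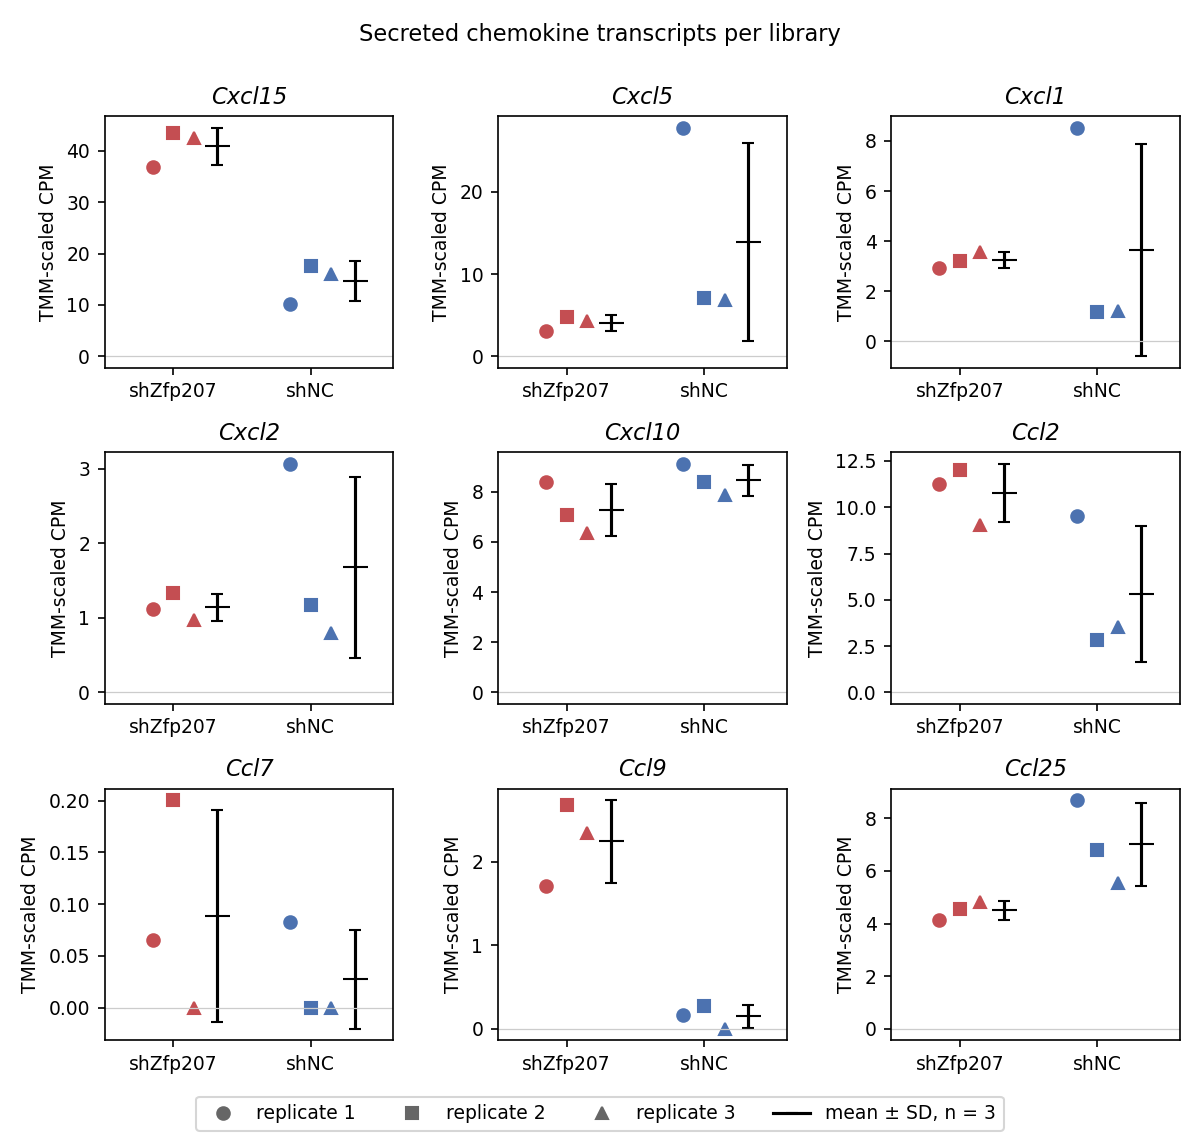
Levels of 9 chemokine transcripts in each library, in TMM-scaled CPM on linear axes that differ between panels, with shZfp207 left of shNC and marker shape giving the replicate number. Bars are the mean and SD of 3 libraries. The 3 shZfp207 libraries lie above the 3 shNC libraries for Cxcl15 and Ccl9 and below them for Cxcl5 and Ccl25, and shNC replicate 1 is the highest control for each gene drawn except Cxcl15 and Ccl9. Cxcl12, at 0 in every library, is not drawn.

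Among the neutrophil-attracting CXC chemokines, Cxcl15, also called lungkine for its expression in mouse lung, was the most abundant of the 10 genes in shZfp207 and rose 2.80-fold. Values per library are CPM scaled by the trimmed mean of M values (TMM), which corrects for differences in RNA composition between libraries. Cxcl15 had 36.8, 43.4 and 42.6 CPM in shZfp207, against 10.2, 17.6 and 16.1 CPM in shNC. The lowest shZfp207 library was above the highest shNC library, and shNC replicate 1 was the lowest of the controls. The means were 40.9 ± 3.60 CPM in shZfp207 and 14.6 ± 3.92 CPM in shNC (SD, n = 3 each), with a log2 fold change of 1.48 (95% interval 0.98 to 1.98, edgeR adjusted p = 0.00681). Against shNC replicates 2 and 3 alone the rise was 2.43-fold (log2 fold change 1.28, edgeR adjusted p = 0.000112), and the call held with each library left out in turn, with a highest adjusted p of 0.0454.

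Cxcl5, known in the mouse as LIX and made by epithelial cells as a CXCR2 ligand, was lower in shZfp207, but its size depended on 1 control library. It had 3.02, 4.81 and 4.35 CPM in shZfp207, against 27.8, 7.08 and 6.82 CPM in shNC. The groups did not overlap, and shNC replicate 1 was 4.0-fold the mean of the other controls. With all libraries the log2 fold change was -1.76 (95% interval -3.19 to -0.33), which did not pass by edgeR (adjusted p = 0.0825) and passed by DESeq2 (adjusted p = 0.00996). Leaving out shNC replicate 1 gave -0.78 (SE 0.208, edgeR adjusted p = 0.0178), so that the call was gained while the difference shrank to a ratio of 0.584.

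Cxcl1 and Cxcl2 encode the mouse chemokines KC and MIP-2, early neutrophil attractants in inflammation. Cxcl1 had 2.95, 3.21 and 3.59 CPM in shZfp207, against 8.53, 1.17 and 1.23 CPM in shNC. The shZfp207 libraries lay between shNC replicate 1 and the 2 other controls, which stood 7.12-fold apart. Over all libraries the log2 fold change was -0.13 (95% interval -1.96 to 1.69, edgeR adjusted p = 0.920), and it turned to 1.43 when shNC replicate 1 was left out (SE 0.234, edgeR adjusted p = 0.00224). That corresponds to 2.71-fold the mean of shNC replicates 2 and 3, and no other single library changed the call.

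Cxcl2 showed the same high control library without a difference among the rest. It had 1.11, 1.34 and 0.966 CPM in shZfp207, against 3.06, 1.17 and 0.798 CPM in shNC. The groups overlapped with or without shNC replicate 1. Its log2 fold change was -0.52 with all libraries (edgeR adjusted p = 0.524) and 0.22 without that control (edgeR adjusted p = 0.607, 95% interval -0.57 to 1.01), from 13 to 37 counts per library. Of the 50-base stretches of Cxcl2 exons, 5.84% also occur in Cxcl3, and the sources used here do not say how reads matching both genes were counted.

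Ccl2, the monocyte chemoattractant MCP-1, was the second most abundant of the 10 transcripts in shZfp207 by mean CPM. It had 11.3, 12 and 9.04 CPM in shZfp207, against 9.52, 2.82 and 3.56 CPM in shNC. The groups overlapped through shNC replicate 1, which was 2.99-fold the mean of the other controls and within the shZfp207 range. The log2 fold change of 1.04 did not pass (95% interval -0.02 to 2.10, edgeR adjusted p = 0.145). It was 1.75 when that library was left out (SE 0.190, edgeR adjusted p = 0.000353), a 3.38-fold difference from shNC replicates 2 and 3.

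Ccl7, which lies next to Ccl2 (chr11:82035571-82037453) at chr11:82045712-82047525 and encodes the related CCR2 ligand MCP-3, was near 0. It had 1, 3 and 0 counts in shZfp207 and 1, 0 and 0 counts in shNC. Summed over libraries this is 4 counts in shZfp207 (exact Poisson 95% interval 1.09 to 10.2) and 1 count in shNC (0.0253 to 5.57). Scaled to the library totals, the ratio was 3.81 with an interval from 0.377 to 187, so no difference was detectable at this depth. Counting intervals here cover counting error only.

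Ccl9, the CCR1 ligand MIP-1 gamma, which in the mouse is made mainly by macrophages and other myeloid cells, had the largest fold change of the 8 tested genes. It had 26, 40 and 34 counts in shZfp207, against 2, 4 and 0 counts in shNC. Every shZfp207 library was above every control, and the control counts were at or near the level of 3 counts taken as the floor. Ccl9 passed the low-count filter only through shZfp207, so its direction was largely set by the filter. In scaled CPM the means were 2.24 ± 0.493 in shZfp207 and 0.147 ± 0.138 in shNC (SD, n = 3 each), with a log2 fold change of 3.91 (95% interval 2.33 to 5.48, edgeR adjusted p = 0.0108). On summed counts, 100 in shZfp207 and 6 in shNC, the ratio was 15.9 with a counting interval from 7.04 to 44.3. The call was lost without shZfp207 replicate 2 (adjusted p = 0.0603) or replicate 3 (adjusted p = 0.0595), with log2 fold changes of 3.76 and 3.87, and it was kept without shNC replicate 1 (4.02, adjusted p = 0.00264). The log2 fold change was 4.81 without shNC replicate 2 and 3.27 without shNC replicate 3, and 2.47 and 0.69 with limma on log2(FPKM + 0.1) and log2(FPKM + 1), scales that understate the change of a low gene.

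Leukocyte markers were read beside Ccl9 because myeloid cells make it. The 7 listed symbols summed to 43.6 to 44.9 CPM in shZfp207 and 35.8 to 41.4 CPM in shNC, most of it from Cd14 and Cd68. Adgre1 and Itgam, macrophage surface markers, had 0 to 2 counts in every library. Ptprc, the pan-leukocyte CD45 gene, had 8, 5 and 5 counts in shZfp207, against 1, 1 and 0 counts in shNC. Csf1r, the receptor for macrophage colony-stimulating factor, had 52, 48 and 45 counts in shZfp207, against 2, 6 and 14 counts in shNC. In bulk RNA, more cells of a type and more RNA per cell cannot be told apart. Cd68, a lysosomal protein gene of macrophages, went the other way, with 157, 189 and 149 counts in shZfp207, against 203, 200 and 208 counts in shNC. Lyz2, the myeloid lysozyme gene, averaged 1.05 CPM in shZfp207 and 1.34 CPM in shNC, and Cd14 averaged 28.1 CPM in shZfp207 and 22.4 CPM in shNC. The listed markers thus did not share a direction: Ptprc and Csf1r were higher in the same libraries as Ccl9, and Cd68 was lower. Their part in the Ccl9 result was not tested.

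Cxcl10, the interferon-inducible CXCR3 ligand that attracts activated T cells, was detected in every library and did not pass. It had 8.39, 7.09 and 6.35 CPM in shZfp207, against 9.11, 8.39 and 7.86 CPM in shNC. The groups overlapped, and shNC replicate 1 lay at 1.12-fold the mean of the other controls. The log2 fold change was -0.21 (95% interval -0.60 to 0.18, edgeR adjusted p = 0.394), and -0.16 when shNC replicate 1 was left out (-0.52 to 0.20). The interval over all libraries does not reach a doubling or a halving in either direction. Of the Cxcl10 exons, 5.91% overlap Art3 on the opposite strand, and the sources used here do not say whether strand was used in counting.

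Ccl25, the CCR9 ligand made chiefly in thymus and small intestine, was lower in every shZfp207 library. It had 4.13, 4.55 and 4.83 CPM in shZfp207, against 8.70, 6.81 and 5.53 CPM in shNC. The groups did not overlap, and the control values spread more than the shZfp207 values. The log2 fold change of -0.63 did not pass (95% interval -1.14 to -0.13, edgeR adjusted p = 0.0804), and it was -0.45 without shNC replicate 1 (adjusted p = 0.0553). Of its exons, 2.74% overlap Elavl1 on the opposite strand. Cxcl12, the CXCR4 ligand made by stromal cells, had 0 counts in all 6 libraries, which allows up to 0.197 to 0.205 CPM in shZfp207 and 0.185 to 0.251 CPM in shNC at a floor of 3 counts.

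**Figure D2:**
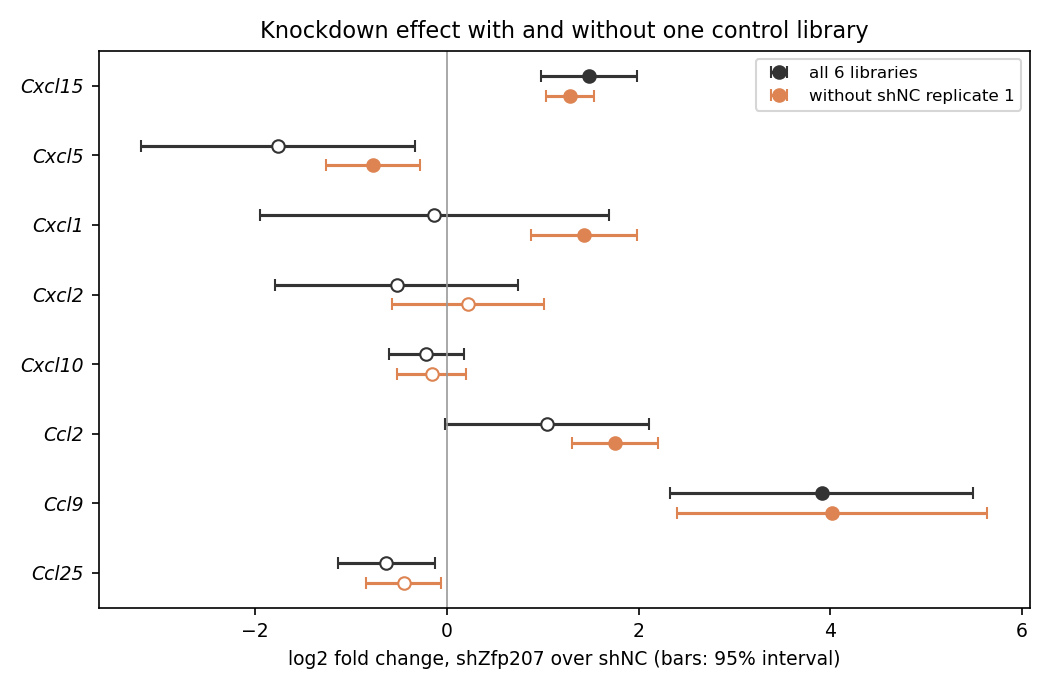
Log2 fold change of shZfp207 over shNC for the 8 tested chemokine genes, with 95% intervals, from all 6 libraries (dark) and without shNC replicate 1 (orange). Filled points have an edgeR adjusted p under 0.05. Cxcl15 and Ccl9 are filled in both fits, Cxcl5, Cxcl1 and Ccl2 are filled only without that library, and Cxcl1 is at -0.13 with all libraries and at 1.43 without it.

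The order of the libraries was also read without a model. With all libraries the groups did not overlap for 4 of the 8 tested genes, 2 with shZfp207 above and 2 with shZfp207 below, against 44.7% of all tested genes (22.3% above and 22.4% below). Of the 2 above, Ccl9 had passed the low-count filter only through shZfp207, so its order adds little. With shNC replicate 1 left out, Ccl2 and Cxcl1 joined Cxcl15 and Ccl9 above the controls. Cxcl5 and Ccl25 stayed below the controls, and Cxcl10 and Cxcl2 overlapped. Over all tested genes, 70.3% did not overlap in that setting (35.2% above and 35.1% below).

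The departure of shNC replicate 1 from the other controls was itself uneven across the chemokines. It was more than 2-fold for Cxcl1, Cxcl2, Cxcl5 and Ccl2, each time higher, against 12.7% of all tested genes in either direction (810 higher and 712 lower). Cxcl15 went the other way, at 0.605 of the mean of shNC replicates 2 and 3. Cxcl10, Ccl9 and Ccl25 were within 1.41-fold. Over the 8 genes the median log2 ratio of shNC replicate 1 to the other controls was 1.02, beside 0.007 over all tested genes. 

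**Figure D3:**
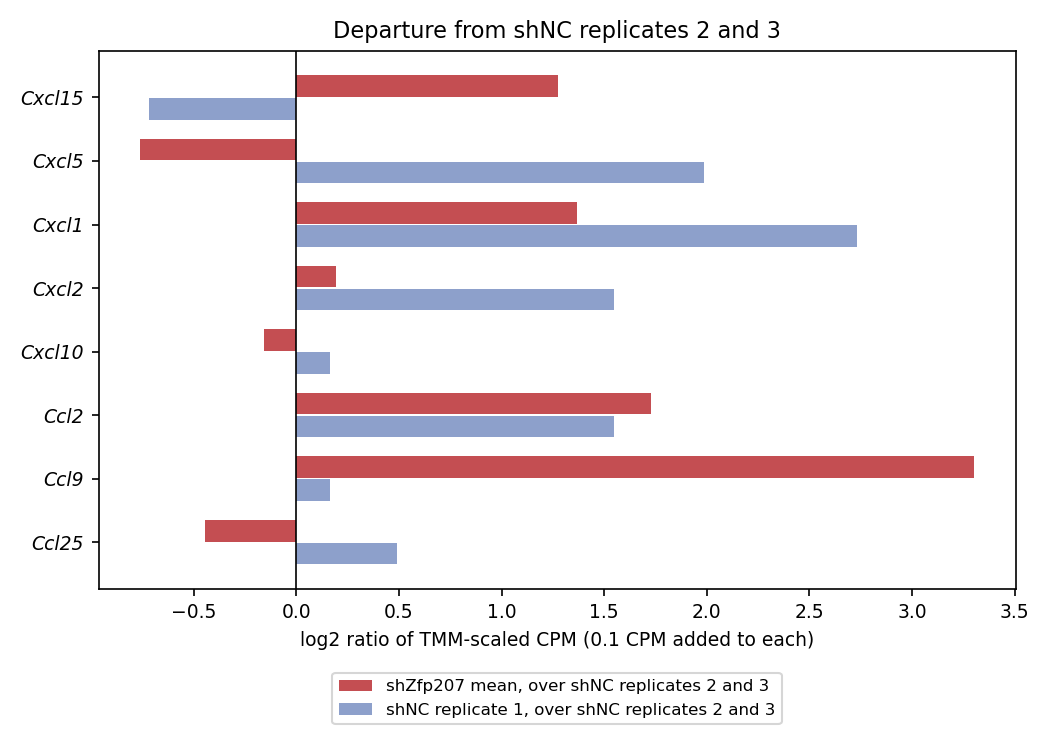
Log2 ratio of the shZfp207 mean (red) and of shNC replicate 1 (blue) to the mean of shNC replicates 2 and 3, in TMM-scaled CPM with 0.1 CPM added, for the 8 tested chemokine genes. Both bars point right for Cxcl1, Cxcl2, Ccl2 and Ccl9, and they point apart for Cxcl15, Cxcl5, Cxcl10 and Ccl25. For Ccl9 the red bar is long and the blue one short. The added 0.1 CPM shortens the Ccl9 bar.

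To compare genes with each other, levels per length were taken as the deposited FPKM. It does not follow the annotated exonic length for every gene. In shZfp207 replicate 1, Cxcl15, with 2127 exonic bases, had 36.8 CPM and 17.3 FPKM. Cxcl10, with a similar 2252 bases, had 8.39 CPM but only 1.76 FPKM. The order given next, in both groups, is thus that of the deposited FPKM and may change with other lengths. In shZfp207, Cxcl15 led at 19.1 ± 1.58 FPKM, followed by Ccl2 at 5.61 ± 0.820 FPKM (SD, n = 3), and the 2 ranges were apart. Cxcl5 followed at 1.33 to 2.10 FPKM and Cxcl10 at 1.32 to 1.76 FPKM, with ranges that overlapped. Ccl25, at 1.06 to 1.23 FPKM, and Cxcl1, at 1.04 to 1.26 FPKM, had FPKM ranges that overlapped too. Ccl9 lay below them at 0.528 to 0.821 FPKM, then Cxcl2 at 0.185 to 0.257 FPKM and Ccl7 at 0 to 0.248 FPKM.

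In shNC the order at the top was not settled. Cxcl15 had 4.83, 8.23 and 7.56 FPKM in shNC replicates 1, 2 and 3. Cxcl5 had 12.4, 3.11 and 3.01 FPKM and Ccl2 had 5.04, 1.47 and 1.87 FPKM in the same libraries. Cxcl15 was thus the highest in replicates 2 and 3 and below Cxcl5 and Ccl2 in replicate 1. Ccl25, at 1.42 to 2.26 FPKM, and Cxcl10, at 1.65 to 1.93 FPKM, overlapped, and Cxcl1 ran from 0.412 to 3.05 FPKM. Cxcl2 ran from 0.155 to 0.600 FPKM, and Ccl9 and Ccl7 reached at most 0.0848 and 0.104 FPKM.

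The makeup of the summed chemokine counts followed the same lines. The 10 genes together had 69.4, 79.3 and 74.0 CPM in shZfp207, against 77.2, 45.3 and 41.9 CPM in shNC, so shNC replicate 1 lay within the shZfp207 range. Cxcl15 took 53.0%, 54.7% and 57.5% of these counts in shZfp207, against 13.2%, 38.8% and 38.4% in shNC. Cxcl5 took 4.34%, 6.07% and 5.87% in shZfp207, against 36.1%, 15.6% and 16.3% in shNC. The exact 95% interval of the Cxcl5 share in shNC replicate 1 was 33.0% to 39.2%.

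Cxcl5, Cxcl15, Cxcl1 and Cxcl2 lie in 1 chemokine cluster on the plus strand of chromosome 5 (build mm10), at chr5:90759360-90761624, chr5:90794534-90803067, chr5:90891241-90893115 and chr5:90903871-90905938. Within 200 kb of Cxcl15, 9 other genes were tested and 2 were called, close to the 20.6% called in either direction over all tested genes. Gm43085, a gene model awaiting experimental evidence that starts 194 bases past the end of Cxcl15 on the same strand, had 15, 16 and 12 counts in shZfp207, against 3, 1 and 2 counts in shNC (log2 fold change 2.70, SE 0.480, edgeR adjusted p = 0.0125). Reads from an extended Cxcl15 transcript and from a separate transcript there cannot be told apart. The Gm43085 call was lost when any of 4 libraries was left out, each shZfp207 library or shNC replicate 3, with adjusted p of 0.0515 to 0.0674. Like Ccl9, Gm43085 passed the low-count filter only through its shZfp207 libraries.

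Cxcl3, a CXCR2 ligand 4934 bases before Cxcl15, fell. It had 630, 598 and 604 counts in shZfp207, against 872, 798 and 940 counts in shNC, and 41.0 ± 0.886 CPM in shZfp207 against 61.6 ± 9.31 CPM in shNC (SD, n = 3 each). Its log2 fold change, -0.59 (SE 0.126), passed by edgeR (adjusted p = 0.0219), a call that held in 2 of 6 fits that left out 1 library, including the one without shNC replicate 1 (adjusted p = 0.00118). Ppbp, Rassf6 and Mthfd2l did not pass, with log2 fold changes of -0.08, 0.19 and -0.09. Adjacent genes of the cluster thus had opposite signs, with Cxcl3 lower and Cxcl15 higher in shZfp207.

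**Figure D4:**
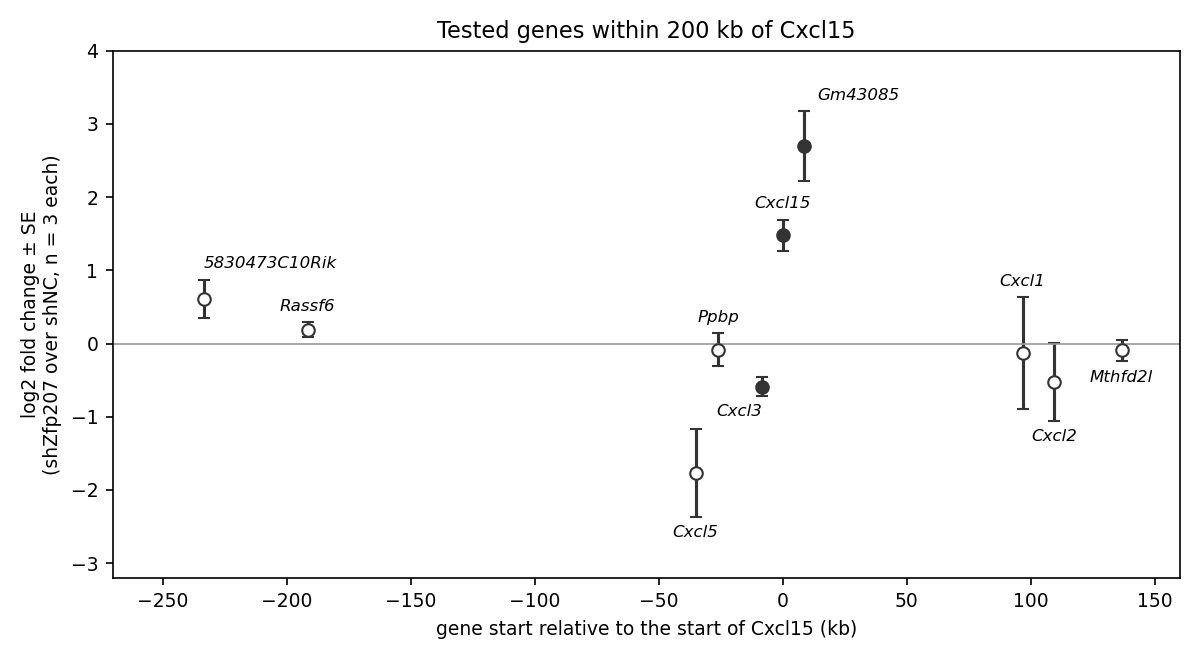
Log2 fold change ± SE of shZfp207 over shNC, with 3 libraries each, for the tested genes within 200 kb of Cxcl15, against the distance of each gene's start from that of Cxcl15 in kb. Filled points have an edgeR adjusted p under 0.05. Cxcl15 and Gm43085 are filled above 0, Cxcl3 is filled below 0, and the other genes are open.

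The remaining chemokines sit among other genes. Ccl9 is at chr11:83572919-83578636 (minus strand), and of 21 neighbours within 200 kb 5 were tested and 2 called. Near Cxcl10, 5 were tested and 2 called, and near Ccl25, 7 were tested and 2 called. Over all tested genes 20.6% were called in either direction, and whether these neighbours differ from that share was not tested. Taf15, which encodes an RNA-binding protein of the FET family, fell by 0.85 (log2, edgeR adjusted p = 0.00365), and Rasl10b, a Ras-like small GTPase gene, fell by 2.73 (adjusted p = 0.00308). The chemokine genes beside Ccl9, among them Ccl3, Ccl4, Ccl5 and Ccl6, had too few counts to test. Near Cxcl10, at chr5:92346638-92348889 (minus strand), Naaa and Scarb2, which encode a lysosomal acid amidase and a lysosomal membrane protein, fell by 0.86 and 0.48 (adjusted p of 0.0433 and 0.0386). Each of these 2 calls was lost in 5 of the 6 fits that left out 1 library, all but the one without shNC replicate 1. Near Ccl25, at chr8:4325210-4360020 (plus strand), Timm44, a subunit of the mitochondrial import motor, fell by 0.73 and Ctxn1 by 1.13 (adjusted p of 0.00679 and 0.00692). Of the 9 neighbours of Ccl2, 8 had no count, and both neighbours of Cxcl12, at chr6:117168535-117181367, had none.

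AU-rich elements were counted as the heptamer TATTTAT, read as DNA on the transcript's strand, in the longest annotated 3′ untranslated region of each gene in GENCODE M21. Cxcl2 held 7 in 1497 bases and Cxcl1 held 6 in 595 bases, where heptamers that overlap count separately. Of genes within 20% of those lengths, 33.4% and 15.6% held at least 1. The shares that held as many as 7 or 6 were not counted. Cxcl5 and Cxcl12 held 1 each, and Cxcl15, Ccl9, Cxcl10, Ccl2, Ccl7 and Ccl25 held none. The counts describe the letters of the annotation.

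For each chemokine with at least 2 CPM on average, the 2 genes nearest in profile were taken as those with the smallest root mean square difference of centred log2 CPM over the 6 libraries, among 10170 genes. Cxcl15 was nearest to Bche, the butyrylcholinesterase gene (0.0849), and to Kmt2a, a histone methyltransferase gene (0.0935). Cxcl10 was nearest to Dnal4 (0.0459) and Tmc8 (0.0520), and Ccl25 to Dgat1 (0.0587) and Pbdc1 (0.0616). Cxcl1 was nearest to Zfp950 (0.109) and to mt-Cytb, a mitochondrially encoded subunit of complex III (0.148). Ccl2 was nearest to Glrp1 (0.206) and Ccp110 (0.217), and Cxcl5 to Prss42 (0.254) and Dpp7 (0.266). The distances were thus smallest for Cxcl10 and largest for Cxcl5. They are not scaled to each gene's own spread, which was small for Cxcl10 and large for Cxcl5. Their order therefore does not rank how closely a profile is shared. They cover 6 libraries of 2 groups, and mt-Cytb shares with Cxcl1 its high value in shNC replicate 1, the library with the highest mitochondrial share.

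Of the other secreted chemokine genes of the mouse, 34 gene entries were in the table, 21 had no count in any library and 5 were tested. By edgeR 0 rose (0 at an unadjusted p under 0.05 and 0 by DESeq2), against 9.92% of all genes. Of the 5 tested, 1 fell, Cxcl3, against 10.7% of all genes. Their median log2 fold change was -0.08. Of 24 chemokine receptor and scavenger genes, 1 was tested and 16 had no count. That gene, Ccrl2, an atypical receptor that binds chemerin, had a log2 fold change of 0.00 (adjusted p = 0.996) whose sign turned with 3 other scalings or tests and 3 left-out libraries, and by edgeR 0 receptors were called in either direction (0 at an unadjusted p under 0.05 and 0 by DESeq2). Ccr7, the CCL19 and CCL21 receptor and the receptor with the next highest mean, had 8, 9 and 2 counts in shZfp207, against 2, 1 and 0 counts in shNC.

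Of 20 cytokine and Toll-like receptors and adaptors, which lead to NF-kappaB or interferon signalling, 19 were tested, 3 rose and 2 fell, with a median log2 fold change of 0.02. Both counts are near the shares over all tested genes, 9.92% higher and 10.7% lower. Il1r1, the signalling receptor for interleukin 1, had 505, 528 and 447 counts in shZfp207, against 163, 237 and 270 counts in shNC. Its rise of 1.10 in log2 units (SE 0.127, edgeR adjusted p = 0.00425) was called in 6 of 6 fits that left out 1 library. Ifngr1, a chain of the interferon gamma receptor, rose by 0.41 (adjusted p = 0.0341) and Traf6, an adaptor of the interleukin 1 and Toll-like pathways, rose by 0.42 (adjusted p = 0.0333). Il17ra, a chain of the interleukin 17 receptor, fell by 0.51 (adjusted p = 0.0401) and Tlr2, a receptor for bacterial lipoproteins, fell by 0.87 (adjusted p = 0.0272). Each of these last 4 calls held in only 1 of the 6 fits that left out 1 library, the one without shNC replicate 1.

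Of 16 regulators of chemokine induction and mRNA decay, all were tested, 2 rose and 1 fell, with a median log2 fold change of -0.15. These counts too are near the shares over all tested genes, 9.92% higher and 10.7% lower. Zfp36l2, which encodes a protein that binds AU-rich elements and promotes mRNA decay, averaged 100.6 ± 1.69 CPM in shZfp207 and 43.2 ± 11.5 CPM in shNC (SD, n = 3 each), and rose by 1.22 in log2 units (edgeR adjusted p = 0.00947). Irf1, an interferon-responsive transcription factor, averaged 34.2 ± 1.53 CPM in shZfp207 and 22.0 ± 0.882 CPM in shNC (0.64, adjusted p = 0.00865). Irf3, a transcription factor activated by nucleic acid sensing, averaged 44.5 ± 1.89 CPM in shZfp207 and 64.3 ± 2.44 CPM in shNC (-0.53, adjusted p = 0.0103). The Zfp36l2 and Irf1 calls were lost without shZfp207 replicate 2 or replicate 3 (adjusted p up to 0.0549), and the Irf3 call without any 1 shZfp207 library (up to 0.0685). Nfkbiz, an NF-kappaB cofactor and inducer of chemokine genes named after its values were seen, had 217, 225 and 239 counts in shZfp207, against 614, 113 and 109 counts in shNC. It showed the order of Cxcl1, with the shZfp207 libraries between shNC replicate 1 and the other controls.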

How the data were processed

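RNA-seq was made from 3 shZfp207 and 3 shNC libraries, and groups follow the labels. The deposited tables give the authors' raw counts per gene and FPKM per gene, 1 column per library. Per the submitters' processing notes, the build was mm10 and the tools featureCounts 1.5.0-p3 and HISAT2 2.0.5, and the sources used here give neither annotation nor strand setting. From the counts, edgeR 4.0.16 (R 4.3.3) was fitted to all genes passing filterByExpr, with TMM scaling, a quasi-likelihood test and Benjamini-Hochberg adjustment at 0.05. Each SE is the log2 fold change divided by the square root of its F statistic. DESeq2 1.42.0, limma 3.58.1 on log2(FPKM + 0.1) and log2(FPKM + 1), other scalings and filters, a replicate block and leaving out each library were alternatives. The code was tested on simulated data. The 10 genes and the lists were chosen with earlier results of these data known. Named genes were these 10, list genes that passed (Ccrl2 and Ccr7, the receptors with the highest mean CPM, where none passed), the 2 nearest profiles of each of them with at least 2 CPM and called neighbours within 200 kb. Names given outside this rule (Ppbp, Rassf6, Mthfd2l, Nfkbiz, the untested genes beside Ccl9) were chosen after their values were seen. Of the 34718 gene IDs, 98.8% were found in GENCODE M21 and 79.9% had the same start and end, all 10 chemokines among them. The listed symbol Auf1 matched no gene. Promoter windows come from RefSeq (GRCm38.p6). The total counts per library, 11933736 to 16248346, set the precision of low genes, and a floor of 3 counts is 0.185 to 0.251 CPM.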

Additional observations from a re-analysis of the deposited data

How the results depend on the processing

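Of 120 recomputed log2 fold changes of the 8 tested chemokine genes, 110 kept their direction and side of the threshold. Ccl9 lost its call in 2, Ccl2 and Cxcl5 gained one in 3, and 5 reversed. The log2 fold change of Cxcl1 was 0.38 with limma on log2(FPKM + 0.1), 0.085 on log2(FPKM + 1), 0.41 with the replicate block and 1.43 without shNC replicate 1, and it ranged from -0.56 to 1.43 with each library left out. That of Cxcl2 ranged from -0.87 to 0.22 and was positive only without shNC replicate 1. The chemokine genes called higher numbered 1 to 4 and those called lower 0 to 1 when each library was left out, and DESeq2 called 1 lower. Over all genes, 2466 were called, and 534 to 6313 with each library left out, the highest without shNC replicate 1. The replicate block called 987 genes. Libraries with the same replicate number did not deviate together (correlations -0.008, 0.008 and 0.053), so the numbers are not taken to pair the libraries. With the block, 0 other chemokines, 1 cytokine or Toll-like receptor or adaptor higher and 0 lower were called. These receptors and adaptors were 1 higher and 1 lower with no filter beyond 1 count, and 1 lower with limma at either pseudocount. With each library left out, other chemokines called lower numbered 0 to 1, receptors and adaptors 1 to 5 higher and 0 to 5 lower, and decay and induction regulators 0 to 3 higher and 0 to 5 lower. Ccrl2 reversed to -0.050 with upper-quartile scaling, to -0.0023 and -0.00075 with limma at the pseudocounts of 0.1 and 1, and without shZfp207 replicate 2, shNC replicate 1 or shNC replicate 3, in a range of -0.35 to 0.37. Zfp950 reversed to 0.19 with limma on log2(FPKM + 0.1), 0.31 with the block and 1.2 without shNC replicate 1, in a range of -0.54 to 1.2. The value of mt-Cytb was -0.032 with upper-quartile scaling and ranged from -0.35 to 1.61 with each library left out, negative without shNC replicate 2 or 3. Among the other named genes 349 recomputed values kept their side and direction, 86 lost a call, 2 gained one and 12 reversed. The causes were not tested. With 3 libraries a group and 0 to 40 counts for Ccl9, Ccl7, Cxcl2 and Cxcl12, small changes of these genes were not detectable.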

Other observations

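Some chemokines and receptors outside the 10 genes were named after their values were seen. Ccl20, a CCR6 ligand and with Cxcl3 one of the better measured chemokines of these libraries, had 438, 401 and 409 counts in shZfp207, against 240, 448 and 483 counts in shNC, and a log2 fold change of 0.06 (edgeR adjusted p = 0.843). Ccl17, a CCR4 ligand, had 1, 4 and 3 counts in shZfp207 and 0 in each shNC library. Cxcl11, a CXCR3 ligand like Cxcl10, had 3, 5 and 4 counts in shZfp207 and 6, 1 and 6 counts in shNC. Among the receptors, Cxcr4, Ccr1, Ccr2 and Ccr9, which bind Cxcl12, Ccl9, Ccl2 and Ccl25, had 0 counts in every library. Cxcr2, which binds Cxcl1, Cxcl2 and Cxcl5, had 0, 1 and 3 counts in shZfp207 and 5, 0 and 0 counts in shNC.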
